A study of Mus musculus with 36 samples.

Results

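The transcripts described here are 7 genes that move sodium and water across epithelia: the 3 subunits of the epithelial sodium channel ENaC (Scnn1a, Scnn1b and Scnn1g, which encode its alpha, beta and gamma subunits), the ubiquitin ligase Nedd4l, the sodium pump subunit Atp1b1, and the water channels Aqp1 and Aqp3. They were chosen by name from 49585 gene features, all 7 were found, and all 7 passed the filter on low values. They were measured by total RNA sequencing of whole bladder from C57BL/6 mice, in 36 libraries. Every animal had both adrenal glands removed, the main source of corticosterone. The CORT group then received corticosterone, the glucocorticoid of the mouse adrenal, at an inactive timing after recovery, and the control group received vehicle. There are 18 libraries per treatment, with 3 replicates for every time label (4, 8, 12, 16, 20 and 24 h). The labels give neither time zero nor the age, nor the sex of the mice, and there are no animals with intact adrenals among the samples. Whether replicates of a group come from separate animals is not stated, and p-values then reflect only the scatter of these libraries, which can be technical in part.

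ENaC is a channel of the apical membrane of tight epithelia, built from an alpha, a beta and a gamma subunit, that lets sodium enter the cell. The sodium pump, a catalytic alpha subunit with a beta subunit such as Atp1b1, moves this sodium out across the basolateral membrane, and water follows through aquaporins. Nedd4l tags ENaC for removal from the membrane, and the steroid-induced kinase Sgk1 phosphorylates Nedd4l and so keeps more channel in place. In kidney and colon this pathway is a classic target of aldosterone and of glucocorticoids, and the urothelium that lines the bladder also carries ENaC. Aqp3 is a glycerol and water channel of the basolateral membrane of many epithelia, and Aqp1 is a water channel of capillary endothelium and of several epithelia.

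All values are the deposited read counts after quantile normalization, put on a common scale over the 36 libraries, and are called normalized values below. Depending on the library, 68 to 152 reads (median 96) correspond to a normalized value of 100. The mean total was 11016413 reads per library in CORT and 10682675 in vehicle, and 9591304 to 12311337 by treatment and replicate number. The tissue matched its label: the urothelial markers Upk1a (9554 to 30385), Upk2 (2849 to 5960) and Krt5 (6222 to 15853) were high in every library. The protocol text speaks of RNA from blood with globin removal. Of the red cell markers, Alas2 (20.5 to 183) and Slc4a1 (median 4.91) were low. The erythroid list, which also holds globin genes, summed to 1086 to 3724 in CORT and 979 to 6422 in vehicle. In some deposited tables of selected genes, 8 replicate 2 libraries (those of 4, 8, 16 and 20 h, 4 per treatment) carry the name of another library, and 4 of them change treatment. The full tables' names were used, and the treatment differences of the 7 genes are also given without these libraries or under the other names where this moves them. None of the 7 genes is in those selected tables.

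Scnn1g and Scnn1b are neighbours on chromosome 7 of the mm10 mouse genome (GRCm38), both on the forward strand. In the GENCODE M21 annotation Scnn1g lies at chr7:121734479-121768475 and Scnn1b at chr7:121865038-121918514, with 96562 bases between them. The 250 bases before the start of each are shown because of all pairs of the 7 genes these neighbours had the highest correlation across libraries, as described further on. They are taken from RefSeq promoters of GRCm38.p6, for the windows chr7:121734229-121734478 and chr7:121864788-121865037, and read 5′ to 3′ on the forward strand.
Scnn1g: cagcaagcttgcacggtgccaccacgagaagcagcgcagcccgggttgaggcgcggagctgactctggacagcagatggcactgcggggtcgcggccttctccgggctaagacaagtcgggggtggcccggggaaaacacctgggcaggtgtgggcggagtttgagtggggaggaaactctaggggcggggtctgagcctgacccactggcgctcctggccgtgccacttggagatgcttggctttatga
Scnn1b: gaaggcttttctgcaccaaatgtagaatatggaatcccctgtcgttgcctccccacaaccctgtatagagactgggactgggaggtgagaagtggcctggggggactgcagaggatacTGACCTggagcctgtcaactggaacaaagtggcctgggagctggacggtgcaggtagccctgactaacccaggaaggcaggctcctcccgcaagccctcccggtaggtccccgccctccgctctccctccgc
Capitals mark the only match to the 5 motifs searched in both strands: TGACCT, the reverse complement of AGGTCA, the core that ROR and REV-ERB receptors of the clock recognise, 132 bases before the start of Scnn1b. This motif is in 14.0% of the 32851 promoter windows of the same length. The E-box CACGTG (6.02% of windows), the glucocorticoid response element, AGAACA and TGTTCT with 3 bases of any kind between them (0.00913%), its first arm AGAACA alone (16.1%) and the D-box TTATGTAA (0.819%) matched none of the 5 windows found, those of Scnn1b, Scnn1g, Atp1b1, Aqp1 and Aqp3; the arm is part of the full element, so these searches overlap. Scnn1a and Nedd4l had no entry. The windows were GC-rich: 65.2% for Scnn1g and 60.8% for Scnn1b, against a median of 52.4% over all windows.

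The genes were expressed at very different levels. Per kilobase of annotated exon, the normalized value over 36 libraries was 2945 ± 608 (SD) for Aqp3 and 1312 ± 339 for Aqp1, the 2 water channels. Scnn1g followed with 210 ± 49.3 and Atp1b1 with 193 ± 45.9, which did not differ beyond their spread. Nedd4l reached 105 ± 13.8, Scnn1b 42.6 ± 11.3 and Scnn1a 12.8 ± 2.45. The ranges over libraries of Scnn1a (8.05 to 17.7), Scnn1b (22.8 to 73.7) and Nedd4l (84.7 to 155) did not overlap, while Nedd4l overlapped Atp1b1 (122 to 315) and Aqp1 (743 to 2121) overlapped Aqp3 (1854 to 4421). The ENaC subunits thus covered a wide range, with gamma far above beta and beta above alpha in every library. On the same scale another beta subunit of the pump, Atp1b3, had 998 ± 89.6 and the ligase Nedd4, a relative of Nedd4l, had 2104 ± 162.

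**Figure D1:**
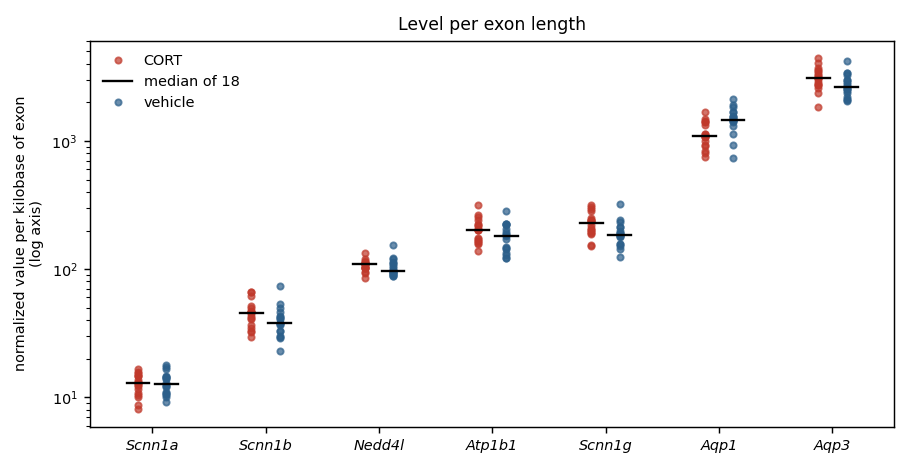
Normalized value per kilobase of annotated exon (y axis, log scale) for the 7 genes (x axis, ordered by their median), 1 point per library, CORT in red and vehicle in blue, with a black line at the median of 18 libraries. The genes span from 8.05 in the lowest library of Scnn1a to 4421 in the highest of Aqp3, and the treatments overlap for every gene.

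The study's question was how corticosterone shapes gene expression in the bladder over the day, so the treatments were first compared over the mean of the 6 times. None of the 7 genes passed limma's test at an adjusted p of 0.05 (Benjamini-Hochberg over all features tested), against a background of 761 of 17184 features (4.43%; 1.41% higher and 3.01% lower in CORT). At an unadjusted p under 0.05 there were 3 of the 7 (Aqp1, Scnn1g and Atp1b1) and 3611 of all features (21%). The median log2 difference was 0.18 over the 7 genes and 0.02 over all features. Differences are on the scale log2(value + 1).

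Of the ENaC subunits, Scnn1a was alike in both treatments, and Scnn1b and Scnn1g had higher central values in CORT. Scnn1a ranged from 33.3 over a median of 53.6 to 68.5 in the 18 CORT libraries and from 38.0 over 52.2 to 73.1 in vehicle. Its difference was -0.04 ± 0.09 (log2 ± SE; limma adjusted p = 0.84), a ratio of 0.97 with a 95% interval from 0.86 to 1.10. The ranges of Scnn1a overlapped over nearly their whole width, and by replicate number the difference was -0.10, 0.02 and -0.04. Scnn1b ranged from 72.5 over a median of 113 to 163 in CORT and from 56.5 over 94.2 to 183 in vehicle, a difference of 0.20 ± 0.11 (adjusted p = 0.31, ratio 1.15, 0.98 to 1.34). Scnn1g ranged from 453 over a median of 683 to 942 in CORT and from 370 over 556 to 958 in vehicle, a difference of 0.26 ± 0.10 (adjusted p = 0.13, ratio 1.20, 1.04 to 1.38). For both genes the CORT median lay above the vehicle median, yet the highest library of all was a vehicle library, 12 h replicate 2. In each replicate number alone the difference was above 0: 0.15, 0.19 and 0.26 for Scnn1b and 0.18, 0.25 and 0.36 for Scnn1g, for replicates 1, 2 and 3. Without CORT 24 h replicate 1, the CORT library with the lowest Scnn1g, the adjusted p for Scnn1g was 0.0466. Without the 8 doubly named libraries the differences were 0.19 for Scnn1b (adjusted p = 0.60) and 0.22 for Scnn1g (0.49), and under the other names they were 0.10 (0.86) and 0.11 (0.84).

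At single times Scnn1b and Scnn1g stood apart at 8 h. There Scnn1b was 113, 122 and 163 in CORT and 81.4, 93.8 and 100.4 in vehicle, and Scnn1g was 750, 723 and 848 in CORT and 553, 568 and 542 in vehicle (replicates 1 to 3). The groups did not overlap for either gene, as was the case for 13.2% of all features at 8 h with CORT higher, and limma called neither (Scnn1b 0.51 ± 0.27, adjusted p = 0.36; Scnn1g 0.48 ± 0.25, adjusted p = 0.34). At 4, 12, 16, 20 and 24 h both genes overlapped between treatments. Without the 8 doubly named libraries, which leaves 2 per group, the 8 h differences were 0.58 and 0.54 without overlap. Under the other names they were 0.22 and 0.11, and the groups overlapped for both genes.

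Scnn1a had its own course. At 12 h it was 35.6, 51.8 and 50.4 in CORT and 59.6, 57.8 and 73.1 in vehicle. At 24 h it was 64.7, 53.6 and 53.6 in CORT and 38.0, 41.2 and 45.1 in vehicle. CORT was therefore below vehicle without overlap at 12 h (-0.47 ± 0.21, adjusted p = 1.00) and above it at 24 h (0.46 ± 0.21, adjusted p = 0.73). At these times 3.52% of all features were lower and 6.42% higher without overlap. Scnn1a rested on few reads, 31 to 83 per library (median 52), at which counting alone gives an SD of 0.20 on the log2 scale, beside a measured SD within groups of 0.26. Scnn1b had 37 to 204 reads (median 106.5), with 0.14 from counting and 0.34 measured.

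**Figure D2:**
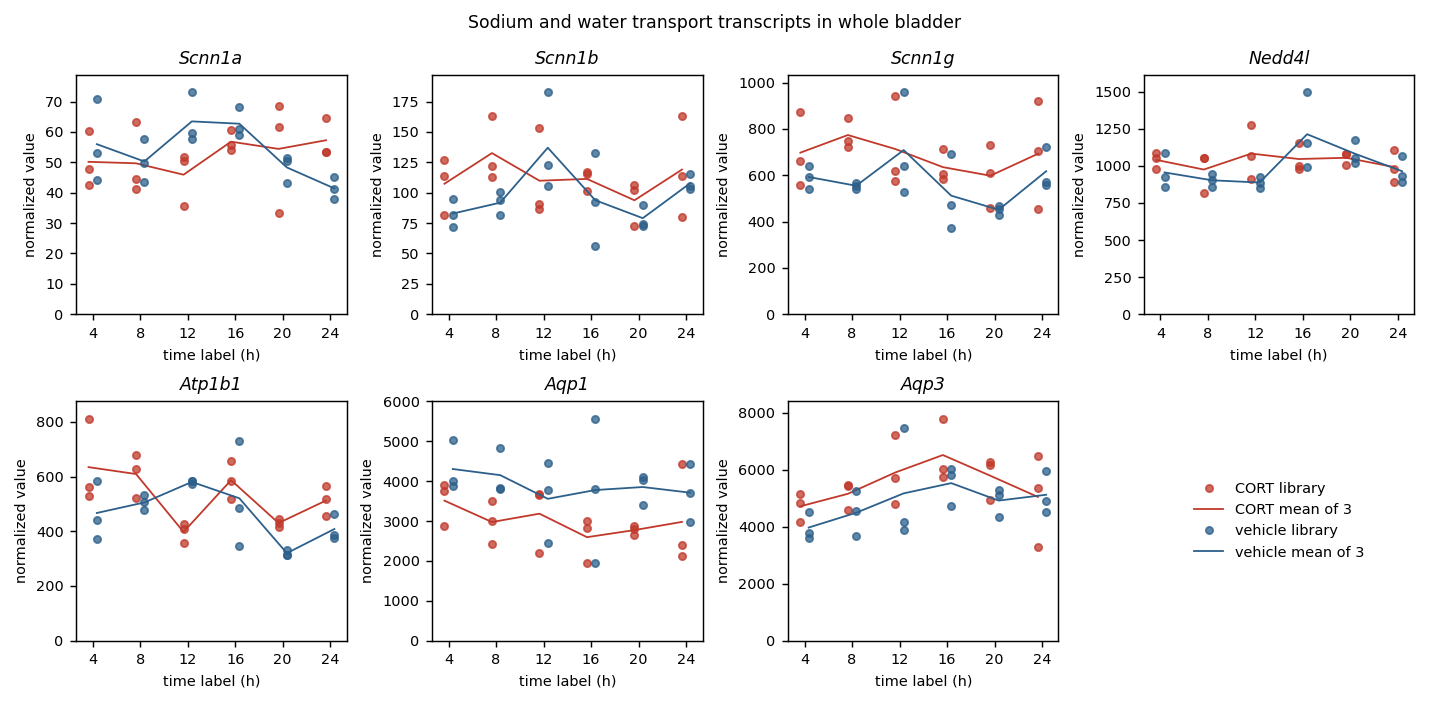
Normalized value (y axis, from 0) against time label (x axis, h) for each of the 7 genes, 1 point per library, with lines through the means of 3 libraries, CORT in red and vehicle in blue. With the names of the full tables, Scnn1b and Scnn1g are higher in all CORT libraries at 8 h, Atp1b1 is lower in all CORT libraries at 12 h (358 to 427 against 574 to 583) and higher at 20 h (the 8 h and 20 h groups overlap under the other names), and Aqp1 lies mostly lower in CORT.

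Nedd4l (chromosome 18, 64887705 to 65217828) was the steadiest of the 7, with an SD within groups of 0.16 against 0.23 to 0.38 in the others. It ranged from 817 over a median of 1053 to 1276 in CORT and from 853 over 938 to 1495 in vehicle. The difference was 0.05 ± 0.05 (adjusted p = 0.62), and its interval as a ratio ran from 0.96 to 1.12. By replicate number it was -0.11, 0.16 and 0.10, and without the 8 doubly named libraries it was 0.01. The treatments overlapped at all 6 times. On average, vehicle libraries were highest at 16 h (1495, 1154 and 989) and lowest at 12 h (924, 885 and 853), whereas CORT libraries stayed between 817 and 1276 with no time apart.

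Atp1b1, the beta 1 subunit that brings the pump to the membrane (chromosome 1, 164437109 to 164458355, reverse strand), ranged from 358 over a median of 521 to 812 in CORT and from 314 over 470 to 731 in vehicle. Its mean difference was 0.19 ± 0.08 (adjusted p = 0.16), a ratio of 1.14 from 1.02 to 1.27. By replicate number it was 0.35, 0.18 and 0.04. Without vehicle 16 h replicate 3, the vehicle library with the highest Atp1b1, the difference was 0.24 with an adjusted p of 0.0291. It was 0.11 (adjusted p = 0.51) without replicate 1 throughout, 0.12 (0.16) with library weights, 0.12 (0.80) under the other names of the 8 libraries and 0.22 (0.39) without them. In vehicle, Atp1b1 was 373, 442 and 585 at 4 h, 476 to 534 at 8 h and 574 to 583 at 12 h, then 344 to 731 at 16 h, 314 to 331 at 20 h and 376 to 463 at 24 h. In CORT it was 530, 561 and 812 at 4 h, 523 to 678 at 8 h, 358, 407 and 427 at 12 h, 519 to 659 at 16 h, 414, 430 and 446 at 20 h and 454 to 565 at 24 h. The 12 h group thus had the highest mean of the 6 times in vehicle and the lowest in CORT. At 12 h CORT lay below vehicle without overlap (-0.55 ± 0.19, unadjusted p = 0.0076, adjusted p = 0.75), and at 20 h above it without overlap (0.43 ± 0.19, adjusted p = 0.77; 8.95% of all features were higher there without overlap). Under the other names the 20 h difference was 0.31 and the groups overlapped. A test of treatment by time of any shape, chosen after the values were seen, gave an adjusted p of 0.55 for Atp1b1 (unadjusted 0.0097) and 1.00 for the other 6 genes, with 23 of 17184 features called (0.134%).

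Among the water channels, Aqp1 (chromosome 6, 55336432 to 55348555) had the largest mean difference of the 7 in size, with lower values in CORT. It ranged from 1952 over a median of 2879 to 4422 in CORT and from 1951 over 3852 to 5571 in vehicle. The difference was -0.37 ± 0.12 (unadjusted p = 0.0057, adjusted p = 0.083), a ratio of 0.77 from 0.65 to 0.92, and it was -0.47, -0.32 and -0.32 in the 3 replicate numbers. It passed the threshold without CORT 24 h replicate 1 (-0.43, adjusted p = 0.0277), without vehicle 12 h replicate 2 (-0.41, 0.0382) or without vehicle 16 h replicate 3 (-0.44, 0.0158), and the value was -0.34 (0.39) when the 8 doubly named libraries were left out and -0.20 (0.76) under their other names. With a term for the replicate number in the fit, Aqp1 passed as well (-0.37, limma adjusted p = 0.0420). At 8 h Aqp1 was 2426, 3004 and 3494 in CORT and 4826, 3799 and 3828 in vehicle, and at 20 h it was 2796, 2647 and 2873 in CORT and 3411, 4042 and 4106 in vehicle. At both times all CORT libraries lay below all vehicle libraries, as for 11% of all features at 8 h and 6.34% at 20 h with CORT lower. The adjusted p at these times was 0.44 and 0.85. Under the other names the 8 h difference was -0.17 and the groups overlapped, whereas at 20 h it was -0.38 and they did not.

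Aqp3 (chromosome 4, 41092722 to 41098183, reverse strand) ranged from 3272 over a median of 5443 to 7803 in CORT and from 3600 over 4652 to 7464 in vehicle. The difference was 0.18 ± 0.09 (adjusted p = 0.26), a ratio of 1.13 from 0.99 to 1.29, and it was 0.12, 0.09 and 0.33 by replicate number. It was 0.11 without replicate 3 throughout (adjusted p = 0.81) and 0.11 under the other names of the 8 libraries (0.83), and 0.19 (0.50) without them. The treatments overlapped at all 6 times. In CORT, Aqp3 was 4177, 4848 and 5134 at 4 h and 5744, 7803 and 6018 at 16 h. In vehicle it was 3600, 4530 and 3786 at 4 h and 4746, 5819 and 6037 at 16 h. Replicate 2 of both times is doubly named, and under the other names the values of 4 h and 16 h overlapped in both treatments; these times were picked after the values were seen.

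**Figure D3:**
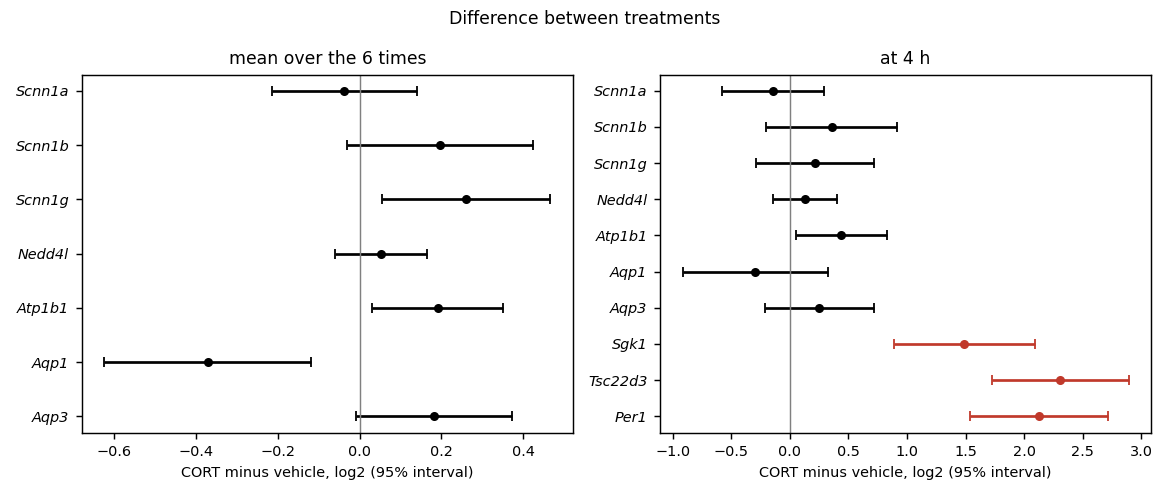
Log2 difference CORT minus vehicle (x axis) with its 95% interval from limma, for the mean over the 6 times (left, the 7 genes) and at 4 h (right, the 7 genes in black and 3 regulators in red). On the left the intervals of Aqp1 (below 0), Scnn1g and Atp1b1 (above 0) leave out 0 before adjustment, and none passed after it; on the right Sgk1, Tsc22d3 and Per1 lie between 1.49 and 2.31.

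Over all single times, 0 of 42 tests of the 7 genes were called by limma (5 at an unadjusted p under 0.05), and the groups did not overlap in 8 of the 42, against 13.1% of the same comparisons over all features. Under the other names of the 8 libraries it was 4 of 42, against 7.78%. Without these libraries, which leaves 2 per group at 4 of the times, it was 12 of 42, against 25.2%. Among all 17184 features limma called 0.18% at 4 h, 0.85% at 8 h, 0.0466% at 12 h, 0.0116% at 16 h, 0 features at 20 h (1054 at an unadjusted p under 0.05) and 0.0349% at 24 h.

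The daily course was then tested within each treatment by a cosine with a period of 24 h. In vehicle, 0 of 7 genes were called by limma (3 at an unadjusted p under 0.05), against 78 of 17237 features (0.453%). The largest amplitudes (log2, mean to peak) were those of Atp1b1, 0.34 ± 0.09 with a peak at 10.2 h (adjusted p = 0.19), and Scnn1a, 0.24 ± 0.07 with a peak at 12.6 h (adjusted p = 0.25). Nedd4l had 0.17 ± 0.06 with a peak at 18.6 h (adjusted p = 0.33), and the other 4 genes had unadjusted p-values of 0.13 to 0.54. In CORT, 0 of 7 genes were called (1 at an unadjusted p under 0.05), and 0 of 17241 features (1046 at an unadjusted p under 0.05). There Aqp3 had the largest amplitude, 0.23 ± 0.08 with a peak at 15.5 h (adjusted p = 0.81), and Atp1b1 had 0.18 ± 0.09 and Scnn1a 0.12 ± 0.09. Under the other names of the 8 libraries the amplitudes in vehicle were 0.24 for Atp1b1, 0.23 for Scnn1a and 0.06 for Nedd4l, and that of Aqp3 in CORT was 0.12.

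The difference between the rhythms was tested directly. limma called 0 of 7 genes and 19 of 17184 features (0.111%), and 2 of the 7 had an unadjusted p under 0.05, Scnn1a (0.033) and Atp1b1 (0.041), both with an adjusted p of 1.00. A test of any change over the 6 times called 0 of 7 genes in vehicle (3 at an unadjusted p under 0.05: Scnn1a, Atp1b1 and Nedd4l, adjusted p = 0.24, 0.25 and 0.34), where 0.487% of features were called. In CORT it called 0 of 7 (1 unadjusted: Atp1b1, adjusted p = 0.50), where 0.0116% of features were called.

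Of 18 enzymes, receptors and other regulators that control ENaC, 3 rose in CORT at 4 h and none fell, where 0.18% of all features were called: Sgk1, Tsc22d3 (which encodes GILZ, a glucocorticoid-induced protein that promotes ENaC at the membrane) and Per1 (a clock gene that also acts on Scnn1a transcription in kidney cells). Per1 is named after its value was seen. Sgk1 was 580, 1219 and 1480 in CORT at 4 h and 310, 364 and 418 in vehicle, a difference of 1.49 ± 0.29 (limma adjusted p = 0.0256). Tsc22d3 was 1854, 4707 and 3747 in CORT and 659, 684 and 593 in vehicle (2.31 ± 0.28, adjusted p = 0.000114). Per1 was 735.5, 1504 and 1383 in CORT and 312, 248 and 235 in vehicle (2.13 ± 0.28, adjusted p = 0.000286). In vehicle, 4 h had the lowest mean of the 6 times for all 3: 364 for Sgk1, 645 for Tsc22d3 and 265 for Per1. At other times CORT was not always higher: mean Per1 was 333 in CORT against 776 in vehicle at 12 h, and 547 against 318 at 24 h. In the 4 h libraries, none of the 7 transport genes was called. The 4 h differences were -0.14 (95% interval -0.58 to 0.29) for Scnn1a, 0.36 (-0.20 to 0.91) for Scnn1b, 0.21 (-0.29 to 0.72) for Scnn1g, 0.13 (-0.15 to 0.40) for Nedd4l, 0.44 (0.05 to 0.83) for Atp1b1, -0.30 (-0.92 to 0.32) for Aqp1 and 0.25 (-0.21 to 0.71) for Aqp3. The interval of Sgk1, 0.89 to 2.09, overlapped that of Scnn1b, and the difference between the regulators and the transport genes was not tested. Without the 8 libraries named in 2 ways the differences were 1.36 for Sgk1 (adjusted p = 0.96), 2.07 for Tsc22d3 (0.0805) and 1.89 for Per1 (0.29), and under the other names they were 0.85, 1.51 and 1.45 (adjusted p = 1.00 for each), so that no gene of this list was called at 4 h in either case. Leaving out any of 5 of the 6 libraries of 4 h (the exception being CORT replicate 1) ended the call of Sgk1. The calls of Tsc22d3 and Per1 ended without replicate 2 throughout (2.07 and 1.89, limma adjusted p = 0.40 for each). They also ended without replicate 3 throughout (2.14 and 1.91, adjusted p = 0.36 and 0.62).

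Over the mean of the 6 times, 0 of these 18 regulators were called by limma (1 at an unadjusted p under 0.05). Sgk1 differed by 0.18 ± 0.12 and Tsc22d3 by 0.20 ± 0.12. The mineralocorticoid receptor Nr3c2 differed by 0.16 ± 0.08, the glucocorticoid receptor Nr3c1 by -0.11 ± 0.07, and Hsd11b2, the enzyme that inactivates corticosterone in aldosterone target cells, by -0.22 ± 0.23 (adjusted p from 0.25 to 0.61 for these 5). Levels of the receptors were 257 to 589 for Nr3c2 and 1587 to 2902 for Nr3c1, whereas Hsd11b2 was between 0 and 6.44. In vehicle, 3 of the 18 had a 24 h rhythm: Per1 (amplitude 0.68 ± 0.09, peak 13.7 h, adjusted p = 0.0058), Tsc22d3 (0.46 ± 0.07, peak 15.5 h, adjusted p = 0.0137) and the kinase Stk39 (0.20 ± 0.04, peak 17.2 h, adjusted p = 0.0468). These 3 are named after their values were seen, and their calls ended without the 8 libraries named in 2 ways and under the other names, where the amplitudes were 0.51, 0.34 and 0.08. The rhythm calls of Per1 and Tsc22d3 also ended when replicate 1, 2 or 3 was left out throughout. The call of Stk39 ended under 24 of the 31 alternatives.

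In the other pathway lists, 2 genes were called in the mean over the day, a share close to the 4.43% over all features. Of the other pump subunits and FXYD regulators, 12 of 13 were tested (median log2 difference 0.01, 3 at an unadjusted p under 0.05) and 1 fell, Fxyd5 (-0.36 ± 0.09, adjusted p = 0.0256), a regulator of the pump. Of the receptors for vasopressin, angiotensin, endothelin and natriuretic peptides, 9 of 10 were tested (median -0.12, 7 of 9 below 0, 4 at an unadjusted p under 0.05) and 1 fell, Ednra (-0.57 ± 0.10, adjusted p = 0.0027), the endothelin receptor of smooth muscle. Both calls ended without the 8 libraries named in 2 ways (Fxyd5 -0.29, adjusted p = 0.21, and Ednra -0.59, adjusted p = 0.14). They also ended under the other names (Fxyd5 -0.23, 0.60, and Ednra -0.49, 0.39). Without replicate 2 throughout, the limma adjusted p was 0.22 for Fxyd5 and 0.15 for Ednra, and without replicate 3 it was 0.22 and 0.11. limma called 0 of 9 proteases that cleave ENaC and their inhibitors (median 0.13, 3 at an unadjusted p under 0.05), 0 of 10 tested of 13 other sodium, chloride and urea transporters (median 0.07, 3 unadjusted) and 0 of 4 tested of 10 other aquaporins (median -0.24, 0 unadjusted). The kidney's vasopressin-regulated water channel Aqp2 was at 0 to 2.13, and the vasopressin receptor Avpr2 at 0 to 0.785 over the 36 libraries.

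Whole bladder mixes cell types, and in such bulk samples fewer cells of a type and less RNA per cell cannot be told apart. Markers of 2 layers, endothelium and urothelium, were first compared between the treatments. Of 10 endothelial markers 8 fell in CORT over the mean of the day (median log2 difference over the 10 -0.40, against 0.02 over all features), and their summed level was 2822 to 5003 in CORT (median 4267) and 3649 to 7031 in vehicle (median 5647). Without the 8 libraries named in 2 ways 1 was called, and with those libraries' other names 0, with medians of -0.40 and -0.35. Without replicate 2 throughout, 0 were called, and without replicate 3, 1 was. Of 16 urothelial markers 1 rose, Upk3a, and all 16 had a difference above 0 (median 0.17); their sum was 73352 to 136015 in CORT (median 115058) and 71563 to 163040 in vehicle (median 99002). Of 6 fibroblast markers 2 fell. Of 5 nerve and Schwann cell markers 1 rose, whereas the other 4 had a difference below 0 (median over the 5 -0.08). Of 4 striated muscle markers tested 1 rose, whereas the other 3 had a difference below 0 (median over the 4 -0.19). limma called 0 of 7 erythroid, 0 of 8 smooth muscle, 0 of 5 adipocyte and 0 of 5 leukocyte markers (0, 0, 0 and 2 at an unadjusted p under 0.05). No marker was at 0 in all libraries of a treatment.

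The water channels followed these layers in opposite directions. Across the 36 libraries, as a description, log2 Aqp3 had r = 0.88 with the summed urothelial markers (0.79 within CORT, 0.94 within vehicle) and -0.69 with smooth muscle. Aqp1 had r = -0.79 with the urothelial sum (-0.78 within CORT and -0.74 within vehicle). With the endothelial sum it had r = 0.67 (0.61 and 0.45), and with smooth muscle 0.61 (0.60 and 0.74, so within vehicle above the endothelial value). Aqp1 and Aqp3 went against each other, with r = -0.79 (rho -0.81), -0.84 within CORT and -0.72 within vehicle, and -0.77 without the 2 libraries farthest from the median. These points share libraries, depth and tissue makeup. The part of the cell makeup in the treatment difference of either gene was not tested.

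**Figure D4:**
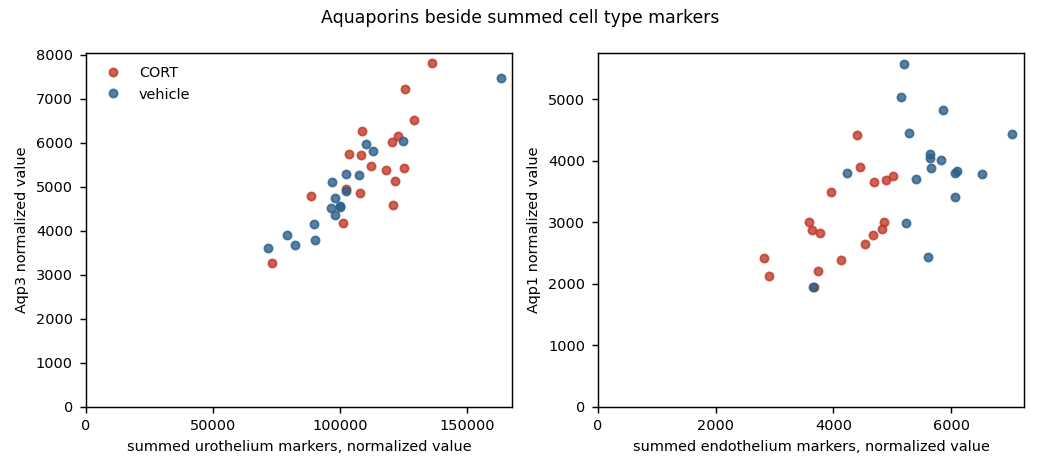
Normalized value of Aqp3 against the summed 16 urothelial markers (left) and of Aqp1 against the summed 10 endothelial markers (right), both axes from 0, 1 point per library, CORT in red and vehicle in blue. Aqp3 rises with the urothelial sum over both treatments (r = 0.88), and for Aqp1 most CORT libraries lie lower and to the left of the vehicle libraries (r = 0.67).

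Among the ENaC subunits, beta and gamma moved together and alpha did not. Over 36 libraries Scnn1b and Scnn1g had r = 0.87 (rho 0.82), 0.91 within CORT, 0.83 within vehicle, 0.78 to 0.93 within each replicate number, and 0.83 without the 2 libraries farthest from the median. Scnn1a had r = 0.08 with Scnn1b and 0.05 with Scnn1g, beside the larger counting error of Scnn1a given above. Both Scnn1b and Scnn1g followed the urothelial sum (0.67 and 0.64). These values were 0.67 and 0.71 within CORT and 0.61 and 0.49 within vehicle. Within replicate 1 they were only 0.31 and 0.33, against 0.59 to 0.83 within replicates 2 and 3. Both genes went against Aqp1 (-0.65 and -0.70) and against Nedd4l (-0.46 and -0.47, but -0.27 and -0.30 without the 2 libraries farthest from the median). With Atp1b1 they had r = 0.60 and 0.55. Scnn1a had r = 0.02 with the urothelial sum. Scnn1g had r = 0.80 with the summed nerve and Schwann cell markers, a sum of which Uchl1 alone made up 94.1% (median). Uchl1 is named after its values were seen.

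**Figure D5:**
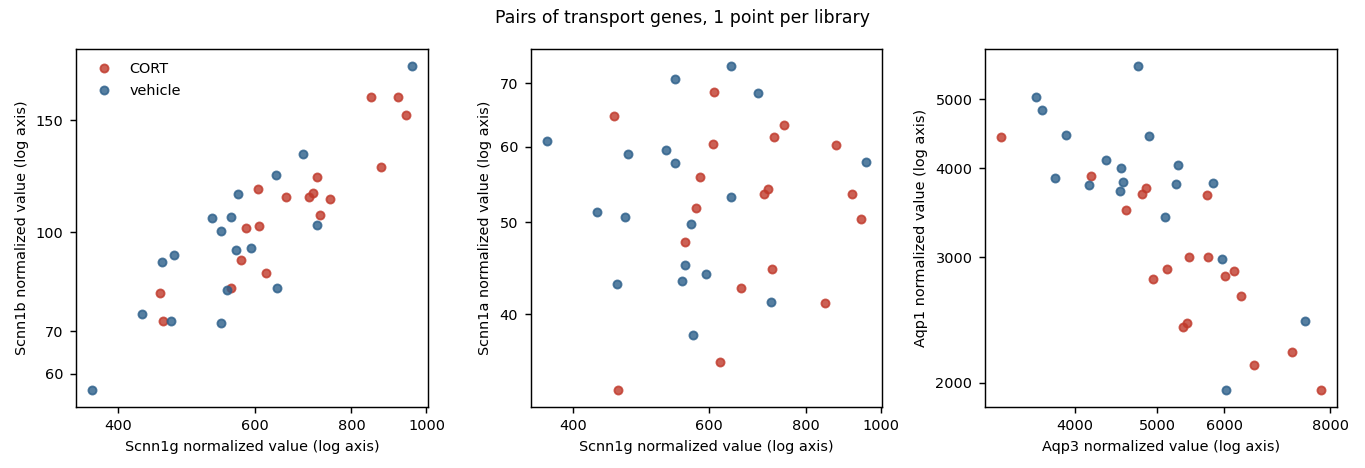
Normalized values of pairs of transport genes in the same library, on log axes, 1 point per library, CORT in red and vehicle in blue: Scnn1b against Scnn1g (left, r = 0.87), Scnn1a against Scnn1g (middle, r = 0.05) and Aqp1 against Aqp3 (right, r = -0.79). The left panel forms a rising line, the middle panel a cloud and the right panel a falling line, with both treatments along each.

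The features most like each gene over the 36 libraries, among 13788 with a mean of at least 10, were as follows. For Scnn1g they were Sgpl1 (r = 0.93), Slc35g1 (0.91) and Msi2 (0.91), and for Scnn1b Tsku (0.89), Hacd3 (0.88) and Sidt1 (0.87). For Aqp3 they were Paqr5 (0.95), Abhd17c (0.93) and Tspan14 (0.93), and for Aqp1 Itih5 (0.90), Nfatc4 (0.89) and Vcl (0.89). For Atp1b1 they were Rab27a (0.81), Sgsm3 (0.78) and Gsto1 (0.75), and for Nedd4l Pus7 (0.78), Inafm2 (0.78) and Afdn (0.76). Scnn1a had no such close partner: its highest values were 0.53 (Zfp641), 0.51 (Adgrg2) and 0.51 (C3). Counting alone gives Scnn1a an SD of 0.20, beside a measured SD within groups of 0.26. The part of this counting error in its lower values was not tested.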

How the data were processed

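Total RNA of whole bladder was sequenced from rRNA-depleted directional libraries, per the labels' protocols. The submitters' processing notes name mm10 as the build, and aligner and counter are not given in the sources used. The authors deposited a linear signal per gene in tables of 12 libraries (2 replicate numbers of a treatment each): read counts, quantile normalized within each table, as the equal sorted values show. The deposited tables of genes that the authors selected hold log2 values of this signal and served only to compare library names.

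A common quantile scale over 36 libraries was rebuilt from the tables, features with no read were set to 0, and values were analysed as log2(value + 1). A feature entered a fit if at most 50% of its libraries had no read of it. Tests used limma 3.58.1 in R 4.3.3 with Benjamini-Hochberg adjustment at 0.05 over all features: cell means of 12 groups (mean and single-time contrasts), a 24 h cosine and sine, their difference between treatments, and any time effect. Scripts were tested on simulated data. Coordinates and exon lengths are from GENCODE M21; promoters are from RefSeq.

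The members, the 6 pathway and 9 cell type lists and the tests were chosen with earlier results of these data known. Named were all 7 members, 5 regulators (Sgk1, Tsc22d3, Nr3c2, Nr3c1 and Hsd11b2) in the mean comparison, up to 4 called genes per pathway list by smallest p there, defining markers, and the 3 features most like each member. Alternatives covered scaling, pseudocount, filters, variance models, a replicate block, an additive design, single libraries and library names. Depth of a single library cannot be read from quantile values; reads of low features were recovered by numbering equal values, and precision from counting is given for Scnn1a and Scnn1b.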

Additional observations from a re-analysis of the deposited data

Results flagged for a closer look

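Scnn1a and Atp1b1 each had CORT libraries entirely below the vehicle libraries at 1 time and entirely above them at another, which flagged them. For Scnn1a the log2 difference was -0.47 at 12 h and 0.46 at 24 h. For Atp1b1 it was -0.55 at 12 h and 0.43 at 20 h. Such a pattern, in either order, was present in 764 of 17184 features (4.45%). The difference between the times was tested by a treatment by time F test in limma, with an adjusted p of 1.00 for Scnn1a and 0.55 for Atp1b1, so neither passed. The libraries of 12 and 24 h are not among the 8 named in 2 ways. Under the other names the 20 h difference of Atp1b1 was 0.31 and the groups overlapped at 20 h, so that Atp1b1 no longer showed the pattern.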

How the results depend on the processing

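With 3 libraries per group, and 31 to 83 reads behind Scnn1a, small differences were not detectable here. The 7 genes' mean differences kept their direction under every alternative run except leave-outs for Scnn1a (-0.0695 to 0.0156) and Nedd4l (-0.00297 to 0.13). At 4 h, leaving out libraries moved Scnn1a between -0.304 and 0.0653, and the selected tables' names turned Scnn1g to -0.0355 and Aqp1 to 0.0571; the cause was not tested.

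In the mean comparison the number of the 7 genes called was 0; it was 3 with library weights (Aqp1, Scnn1g and Aqp3; the weights did not fully converge), 1 with the replicate block (Aqp1, adjusted p = 0.0420) and 0 to 2 with a library or replicate left out. The any-time test in vehicle called 4 of the 7 with library weights (Scnn1a, Scnn1g, Nedd4l and Atp1b1). All other alternatives called 0 of 7 in each comparison.

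Counts over all features moved more. For the mean comparison 761 became 3560 with library weights, 1281 with the replicate block, 6 without the 8 libraries named in 2 ways and 0 with their other names, and 1 to 1335 with leave-outs (1 without replicate 2, 29 without replicate 3). For the single times together 193 became 342 with a mean of at least 10, 309 with an intensity trend, 2109 with weights, 355 with the block, 9 without the 8 libraries, 0 with the other names and 2 to 341 with leave-outs. For the vehicle rhythm 78 became 146, 182 and 167 with the mean filter, trend and weights, 18 without the 8 libraries, 0 with the other names and 4 to 154 with leave-outs. For the CORT rhythm 0 became 1 with the mean filter, 1 with the trend, 2 with weights, 1 with the block and 0 to 3 with leave-outs. For the rhythm difference 19 became 10 without the 8 libraries, 0 with the other names and 1 to 24 with leave-outs. For any time effect in vehicle 84 became 156, 229 and 5138 with the mean filter, trend and weights, 5 without the 8 libraries, 0 with the other names and 0 to 421 with leave-outs. For that in CORT 2 became 11 without a filter, 5 and 57 with trend and weights, 0 without the 8 libraries, 0 with the other names and 0 to 5 with leave-outs.

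Replicate numbers were checked for pairing. Of 198 pairs of same-numbered libraries from different groups, the correlations of deviations from group means ran from -0.34 to 0.35 (median 0.04, against -0.03 for different numbers; 61 over 0.1). Not every pair was over 0.1 and the labels tie no numbers together, so the block served only as an alternative; 30 of 36 libraries correlated best with their own number on average, as a hint from the data that same-numbered libraries may share something.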
